A study of Mus musculus with 18 samples.

Results

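The regions described here were strong binding sites of CTCF that lay away from annotated promoters and carried little RNA polymerase II (Pol II) in the ventricles of adult mice. They were selected on 4 conditions, of which the CTCF and Pol II values were measured, from a table of 101256 ChIP-seq regions. A site had to lie on chromosomes 1 to 19, carry no gene ID (such an ID marks regions near a gene start), have a mean Pol II value below 20 over 6 libraries, and have a mean CTCF value of at least 150 over 6 libraries. The rule found 96 sites, 0.0948% of all regions and 4.55% of the 2111 autosomal regions that reached the same CTCF value. The CTCF and Pol II values of the sites were therefore fixed by the choice and are given as a description, whereas the IgG values, the lengths and the positions were not part of it. The comparisons between genotypes use the same CTCF libraries as the mean of the rule and are not independent of it.

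The study examined how the antisense RNA *Trdn-as* and the RNA methyltransferase METTL3 act on transcription in the heart. Chromatin was prepared from 2 pooled hearts, and each of 3 genotypes had 2 libraries for CTCF, 2 for Pol II and 1 for non-specific IgG. *Trdn-as* KO mice carried a polyadenylation cassette in the first exon of *Trdn-as*, an edit present in all cells of the animal. *Mettl3* KO hearts had the genotype Mettl3lox/lox:alphaMHC-MerCreMerpos, in which tamoxifen activates a Cre recombinase driven by a promoter of heart muscle cells, so other cells of the heart keep the gene. The methods give tamoxifen on 7 consecutive days, at an age of 10 to 16 weeks, for these mice and for floxed *Mettl3* controls without Cre. The control hearts of the ChIP-seq libraries are labelled WT, and whether they came from such floxed and treated controls is not given in the sources used here. In whole ventricles, binding in fewer cells and less binding per cell cannot be told apart.

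CTCF is a zinc finger protein that binds a long DNA motif and holds back cohesin as it extrudes chromatin loops. Pairs of bound sites form the ends of many loops, and bound sites can separate an enhancer from a promoter. Many sites are bound in most tissues and lie far from gene starts.

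Values are read numbers per region that the authors normalised between libraries and rounded to whole numbers. At promoter regions the highest mean Pol II values of heart muscle genes were 10426 for *Myh6*, 4340 for *Pln*, 3150 for *Tnnt2*, 992 for *Actn2* and 625 for *Ryr2*. They were 247.5 and 181 for the fibroblast genes *Col1a1* and *Dcn*, 176 for the endothelial gene *Cdh5* and 15.7 for the leukocyte gene *Ptprc*. The table held no promoter region of *Pecam1*, also an endothelial gene, or of *Alb*, *Afp*, *Ins2* and *Neurod1*, which mark other tissues. Of the mapped reads, 32.1% to 39.2% lay in the regions of the table in CTCF libraries, 18.6% to 42.6% in Pol II libraries, with the lowest share in *Trdn-as* KO replicate 2, and 4.92% to 5.71% in IgG libraries. By estimated reads, the CTCF libraries of *Mettl3* KO hearts differed from each other by less than counting noise. Chi-square per degree of freedom of their estimated reads was 0.943 over 72949 regions with at least 30 reads, where 1 is given by counting alone, against 1.42 for WT and 1.56 for *Trdn-as* KO. This ratio rests on the estimated value of 1 read, which is less certain for replicate 1 of the pair. The share of mapped reads in regions differed within the pair, with 39.2% and 32.1%, and whether both came from a single library was not tested. The pair was counted as 1 sample in means by genotype, whereas the mean CTCF value of a site is over all 6 libraries, as the rule has it. Calls of the fit with all 6 libraries are followed by those with the pair averaged, in which, as with a library left out, the lone sample is assumed to vary like the other genotypes.

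The sites ended close to the limit that chose them. Their mean CTCF value had a median of 171 and ran from 150.2 to 240.8, with 46 sites below 170 and 15 at 200 or more, whereas the highest value of any autosomal region was 949.5. Regions of the table that reached 150 mostly carried far more Pol II, with a median Pol II value of 266.5 and a median length of 2431 nt. The 3 sites nearest to the limit had 150.2, 150.3 and 150.7, and the 3 regions that just missed it had 149.7, 148.5 and 148.3. The Pol II limit fell within a similar continuum, with 19.7 and 19.8 in the last sites included and 20 in the first pair of regions left out.

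The site with the highest CTCF value was chr10:24497277-24499331 (GRCm39), between genes, with the start of *Ccn2*, which encodes the secreted connective tissue growth factor, as the nearest gene start of the table at 26964 nt. For CTCF, WT stood at 249 and 213, *Trdn-as* KO at 255 and 285 and *Mettl3* KO at 220 and 223. Its Pol II values were 14 and 11, 17 and 26, and 18 and 16 in the same order, and its IgG values were 48, 59 and 69. For CTCF the *Trdn-as* KO libraries were above the other 4.

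The next site, chr4:141975405-141977369, lay in the body of *Kazn*, which encodes a protein of cell junctions, and had CTCF values of 239 and 216 (WT), 260 and 263 (*Trdn-as* KO), and 216 and 222 (*Mettl3* KO). The site chr2:19418988-19420519, whose nearest coding gene was *Ptf1a*, a transcription factor gene of pancreas and nervous system, had 227 and 210, 247 and 253, and 228 and 223. In both sites the *Trdn-as* KO libraries were again the highest. The site chr18:75739365-75741486 lay in the body of *Ctif*, which encodes a translation initiation factor, and with values of 210 and 222 (WT), 256 and 213 (*Trdn-as* KO), and 226 and 236 (*Mettl3* KO) the groups overlapped. The fifth, chr19:45208625-45210163, lay 14857 nt from the start of *Lbx1*, a homeobox gene of migrating muscle precursors, and was the only one of the 96 sites on chromosome 19. WT stood at 257 and 223, *Trdn-as* KO at 192 and 219 and *Mettl3* KO at 224 and 225, so here the *Trdn-as* KO libraries were the lowest.

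Long regions collect more reads, and the rule used the value of the whole region. The sites had a median length of 1606.5 nt (919 to 2676), against 879 nt in the 6846 distal regions with the same Pol II limit and a CTCF value of 50 to under 150, called moderate sites below. Across the 96 sites, length and CTCF value had a Pearson correlation of 0.46 and a Spearman correlation of 0.47, a description over regions that share the same libraries. Per 1000 nt the sites had a median CTCF value of 107 (72.8 to 175), against 86.1 in moderate sites, 91.2 in 465 distal regions with the same CTCF minimum and a Pol II value of at least 20, and 99.7 in 33 regions near promoters with the same limits. Of the 96 distal regions with little Pol II that had the highest CTCF value per 1000 nt, only 21 were among the sites, and these regions had a median length of 848.5 nt. The site with the highest CTCF value per 1000 nt was chr5:38464642-38465765 near *Tmem128*, with 175 per 1000 nt over a length of 1124 nt.

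**Figure D1:**
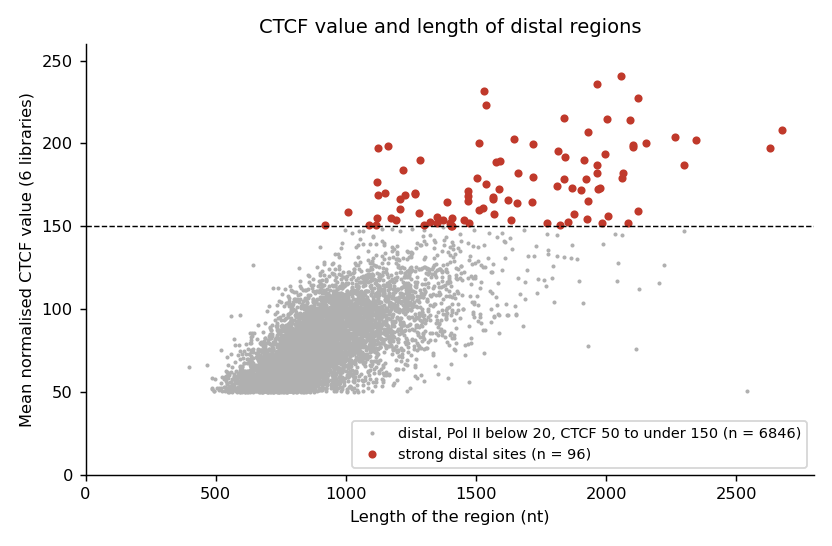
Mean normalised CTCF value over 6 libraries (y axis) against the length of the region in nt (x axis) for the 96 strong distal sites (red) and the 6846 moderate sites (grey). The dashed line is the CTCF minimum of 150 that chose the sites, and the sites lie at 919 to 2676 nt, mostly to the right of the moderate sites.

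Pol II at the sites was at the level of IgG. To compare antibodies, values were turned into RPM, estimated reads scaled to the same number of mapped reads, per 1000 nt. The CTCF density over all sites was 12.8 ± 0.852 RPM per 1000 nt for WT and 13.3 ± 0.983 for *Trdn-as* KO hearts (SD, n = 2 each), with 12.5 for *Mettl3* KO (13.8 and 11.2 in its libraries), which was 19.1, 20.6 and 15.9 times the IgG density of the same genotype. The Pol II density was 0.717 ± 0.0157 for WT, 0.629 ± 0.0732 for *Trdn-as* KO hearts and 0.660 ± 0.00761 for *Mettl3* KO (SD, n = 2 each), which was 1.07, 0.975 and 0.837 times the IgG density of the same genotype. Moderate sites, which share the Pol II limit, had Pol II densities between 0.572 and 0.813 and IgG densities between 0.628 and 0.676, so Pol II near IgG was not particular to the strong sites. The low Pol II value followed from the rule, whereas IgG was not used by it.

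The depth for Pol II was small at these sites. The median site had an estimated 7.5 to 14.0 Pol II reads and 5.03 to 18.1 IgG reads per library, against 404 to 555 CTCF reads. A weak Pol II signal above IgG would thus not have been detectable in a single site. By library the median Pol II value was 14 and 13 (WT), 16 and 20 (*Trdn-as* KO), and 14 and 12 (*Mettl3* KO). The highest of these, in *Trdn-as* KO replicate 2, came from the library with the smallest share of reads in regions, and its density was the lowest of all 6. At 8 sites the mean Pol II value was below 10, with the lowest, 8, at chr11:100059545-100060866 near the keratin gene *Krt19*.

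IgG was not used by the rule. Its mean value over 3 libraries had a median of 41.3 (25 to 70.3), or 26.0 per 1000 nt, against 23.6 in moderate sites, 23.2 in promoter regions of the same limits and 31.4 in distal regions with Pol II. The highest IgG values, both with a mean of 70.3, were at chr15:103085219-103087371 near *Smug1*, a gene of DNA repair, and at chr18:82585615-82587706 in the body of *Mbp*, which encodes myelin basic protein. Their CTCF means were 200.5 and 214. The scales differ, since 1 read was worth 2.54 to 6.56 in IgG libraries and 0.284 to 0.458 in CTCF libraries. With IgG from *Trdn-as* KO, 2 sites had a value of 0, which at 6.56 per read leaves room for up to 3 reads by counting error.

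**Figure D2:**
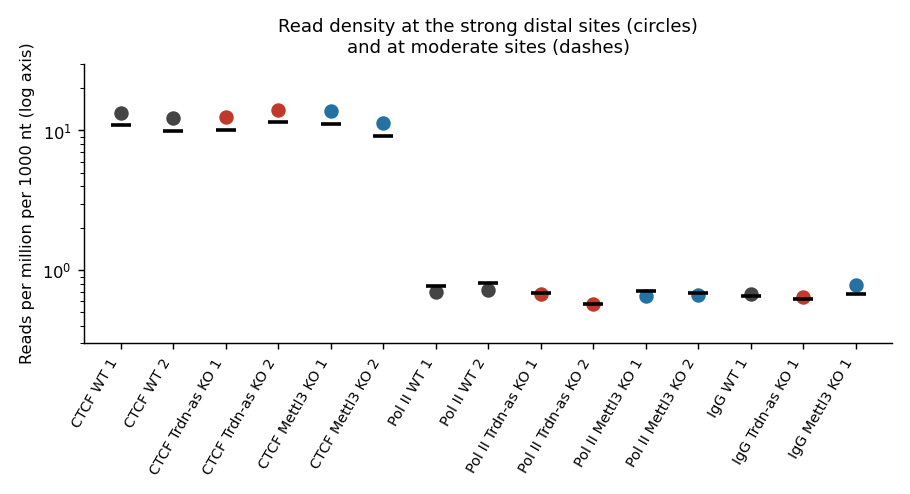
RPM per 1000 nt (log axis) in each of 15 libraries, over all 96 strong distal sites (circles, coloured by genotype) and over the 6846 moderate sites (dashes). CTCF circles lie between 11.2 and 14.0, while Pol II circles lie between 0.577 and 0.728 and IgG circles between 0.645 and 0.789.

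The first question was whether loss of *Trdn-as* changed CTCF at these sites. No site was called. The WT libraries had median CTCF values of 177.5 and 157.5 over the sites, and the *Trdn-as* KO libraries 182.5 and 185. Single sites ran from 136 to 257 and from 127 to 223 (WT), and from 145 to 260 and from 143 to 285 (*Trdn-as* KO). The WT libraries thus differed from each other by more than WT replicate 1 differed from either *Trdn-as* KO library.

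**Figure D3:**
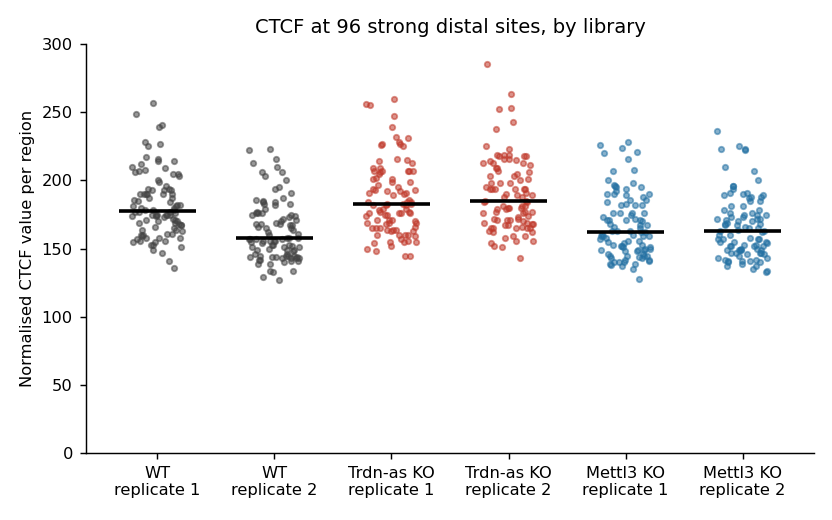
Normalised CTCF value of each of the 96 strong distal sites (points, y axis) in the 6 CTCF libraries (x axis), with the median of each library as a bar. Medians range from 157.5 in WT replicate 2 to 185 in *Trdn-as* KO replicate 2, and the clouds of all libraries overlap.

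The genotypes were compared with limma on log2(value + 1) over 60649 regions, and all 96 sites entered the test. At an adjusted p below 0.05, 0 of 96 sites differed between *Trdn-as* KO and WT, while 0.587% of all tested regions did. The lowest adjusted p of a site in limma was 0.304. At an unadjusted p below 0.05 there were 19 sites, or 19.8%, against 10.2% of all regions. The lowest adjusted p in limma was 0.0687 with libraries scaled by median ratios and 0.0630 with equal totals. It was 0.0413 with quantile normalisation, where 1 site, at *Lbx1*, was called. With the *Mettl3* KO pair averaged, 37 of the 60649 regions and no site were called, 10 sites had an unadjusted p below 0.05 and the lowest adjusted p in limma was 0.721. With a library of the compared genotypes left out, 1 to 5 regions were called, so the share of all regions was not stable. Without the variance trend, or with mapped reads as library size, 0 sites had an unadjusted p below 0.05. The latter scaling divided the *Mettl3* KO libraries by 0.888 and 1.08, against 0.970 and 0.965 with equal totals. It thus set this pair further apart. The log2 fold change had a median of 0.13 and ran from -0.22 to 0.26, with 93 of 96 sites above 0, against a median of 0.04 and 57.2% of regions above 0 in the whole table. Moderate sites had a median of 0.11 and distal sites with Pol II one of 0.09, so values of this size were not particular to the strong sites. With other scalings of the libraries the median was 0.05 to 0.09 and 80 to 91 sites were above 0. The median was 0.21 without WT replicate 1 and 0.06 without WT replicate 2, with 95 and 65 sites above 0. The size of the median thus rested on which WT library was used.

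In 47 sites both *Trdn-as* KO libraries were above both WT libraries, against 19.4% of all tested regions, and in 1 site, at *Lbx1*, both were below, against 13.1%. When each library was scaled to the same total CTCF value, the counts were 44 and 3, against 18.4% and 20.5% of all regions. The sites held 0.598% ± 0.00168 of the summed autosomal CTCF value in *Trdn-as* KO and 0.565% ± 0.0184 in WT (SD, n = 2 each). An exact two-sided permutation test gave p = 0.33, the smallest that 2 against 2 libraries allow, so it could not decide the question. The share also sums values that the rule used. Of the sites, 0 had a mean below 150 in *Trdn-as* KO and 9 in WT.

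The sites with the lowest adjusted p for *Trdn-as* KO did not pass the threshold. The site chr1:172238176-172240475 near *Pigm*, a gene of membrane anchor synthesis, went with WT values of 178 and 175 and *Trdn-as* KO values of 231 and 194, a log2 fold change of 0.26 with an SE of 0.09 and an adjusted p of 0.304 in limma. The site chr1:170728090-170729863 near *Dusp12*, a phosphatase gene, had 149 and 139 against 175 and 167, a log2 fold change of 0.25 and an adjusted p of 0.331 in limma. In both, the groups did not overlap, but the site near *Dusp12* reached the CTCF minimum in *Trdn-as* KO only, so its choice favoured that direction. On the lower side, the site at *Lbx1* described above had a log2 fold change of -0.22 with an SE of 0.08 and an adjusted p of 0.381 in limma. With quantile normalisation this site was called, with an adjusted p of 0.0413 in limma. The other was chr2:75944880-75946703 in the body of *Pde11a*, a phosphodiesterase gene, where WT stood at 184 and 146 and *Trdn-as* KO at 145 and 166, which overlapped.

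The second comparison asked the same for the loss of METTL3 in heart muscle cells. Again no site was called, against 0.185% of tested regions. The median CTCF value was 162.5 and 163 in the *Mettl3* KO libraries, between those of the WT libraries. The log2 fold change had a median of -0.06 (-0.31 to 0.19), which equalled the median of -0.06 of all tested regions, and 30 of 96 sites were above 0, against 39.2% of all regions, a number that turned to 49 when libraries were scaled by median ratios, to 57 without WT replicate 1 and to 19 without WT replicate 2. The lowest adjusted p in limma was 0.182, and 7 sites had an unadjusted p below 0.05, or 7.29%, against 15.7% of all regions. With the *Mettl3* KO pair averaged, or with any of the 6 libraries left out, 0 of all tested regions were called, so that 0 sites there say nothing of stability. With the pair averaged, no site was below 0.05 without adjustment and the lowest adjusted p in limma was 0.841. The median was 0.02 without WT replicate 1 and -0.13 without WT replicate 2.

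Both *Mettl3* KO libraries were below both WT libraries in 27 sites, against 27.7% of all tested regions, and above both in 10, against 15.8%. Scaled to equal totals, the counts were 22 and 28, with 24.7% and 24.9% of all regions. The order of the genotypes at single sites was thus near that of the whole table and depended on the scaling. The share of the summed CTCF value was 0.565% in *Mettl3* KO, as in WT. The exact two-sided permutation test of 2 against 2 libraries gave p = 1. It could not go below 0.33 and used values of the rule, so it could not decide whether the shares were equal.

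Among single sites, the one in *Pde11a* had the lowest log2 fold change, -0.31 with an SE of 0.11 and an adjusted p of 0.182 in limma, with 128 and 137 in *Mettl3* KO against 184 and 146 in WT. The site chr4:132550728-132551846 near *Ppp1r8*, which encodes a regulator of protein phosphatase, had 142 and 139 against 175 and 156, a log2 fold change of -0.23 and an adjusted p of 0.220 in limma. These groups did not overlap, but the WT libraries lay further apart than the KO libraries did. On the higher side stood chr1:119010107-119012081 near *Gli2*, a transcription factor gene of Hedgehog signalling, with 190 and 175 in *Mettl3* KO and 158 and 161 in WT, a log2 fold change of 0.19 and an adjusted p of 0.315 in limma. The other was the site near *Tmem128*, with 200 and 210 against 190 and 177, and an adjusted p of 0.327 in limma.

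With the values as deposited, the sites were nearest to the threshold between the knockouts. With median ratios, equal totals or quantile normalisation, *Trdn-as* KO against WT came nearer to it. None was called in *Trdn-as* KO against *Mettl3* KO, where 1.37% of tested regions were, but 49 of 96 sites had an unadjusted p below 0.05, or 51.0%, against 18.8% of all regions. This number was 20 with median ratios, 23 with equal totals and 3 without the variance trend. It was 0 with mapped reads as library size, a scaling that set the *Mettl3* KO pair further apart. The lowest adjusted p in limma was 0.0550. The log2 fold change had a median of 0.18 (-0.13 to 0.35) with 91 of 96 sites above 0, against a median of 0.09 and 65.2% in the whole table. Moderate sites had a median of 0.18, promoter regions with the same limits 0.17 and distal sites with Pol II 0.10. With other scalings of the libraries the median was 0.09 to 0.10 and 74 to 82 sites were above 0. With the *Mettl3* KO pair averaged, 16 of the 60649 regions and no site were called, and with a library left out 1 to 26 regions were. With the pair averaged, 9 sites had an unadjusted p below 0.05 and the lowest adjusted p in limma was 0.725.

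In 77 sites both *Trdn-as* KO libraries were above both *Mettl3* KO libraries, against 34.7% of tested regions, and in 1 site both were below, against 12.6%. Scaled to equal totals the numbers were 56 and 6, against 24.98% and 23.0%. The site with the lowest adjusted p was chr8:126676458-126677847, 39963.5 nt from the start of the kinase gene *Map3k21*. *Trdn-as* KO stood at 186 and 185, *Mettl3* KO at 146 and 147 and WT at 171 and 152, a log2 fold change of 0.34 with an SE of 0.08 between the knockouts. The second was chr7:68229161-68231124, whose nearest coding gene was *Arrdc4*, with 207 and 211 against 167 and 163, a log2 fold change of 0.34 and an adjusted p of 0.0598 in limma. In both sites WT replicate 1 was closer to *Trdn-as* KO and WT replicate 2 closer to *Mettl3* KO, with 203 and 171 in the latter site. The sites that were lower in *Trdn-as* KO with the lowest adjusted p were again those at *Lbx1* and *Gli2*, with log2 fold changes of -0.13 and -0.04.

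**Figure D4:**
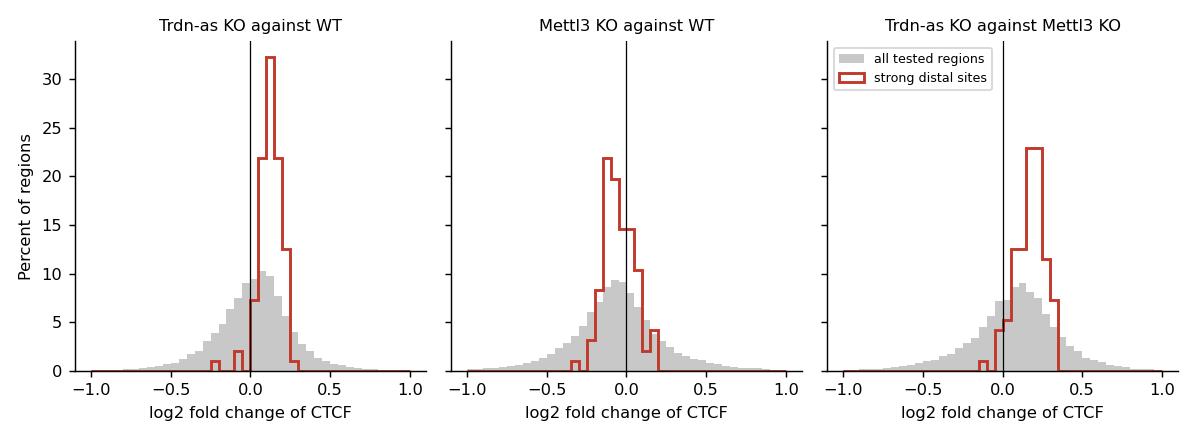
Percent of regions (y axis) by log2 fold change of CTCF (x axis) for the 96 strong distal sites (red line) and all 60649 tested regions (grey) in 3 comparisons. The sites lie between -0.22 and 0.26, between -0.31 and 0.19 and between -0.13 and 0.35, inside the range of the tested regions.

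The mean over all libraries tends to keep sites that are alike in all genotypes. Of the 96 sites, 9 had a WT mean below 150, 25 a *Mettl3* KO mean and 0 a *Trdn-as* KO mean, and 3 reached 150 in *Trdn-as* KO only. The minimum was therefore also applied to the genotype that was not in the comparison, a choice made after seeing the data. For *Trdn-as* KO against WT this gave 71 sites, all among the 96, of which 0 were called, 70 were above 0 and the median log2 fold change was 0.14. For *Mettl3* KO against WT it gave 143 sites, of which 0 were called and 44 were above 0, with a median of -0.05. Between the knockouts it gave 90 sites, of which 84 were above 0 with a median of 0.19. Of these 1 was called, against 1.37% of all tested regions.

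The called region was chr7:27000791-27002304, which is not among the 96 sites because its mean over 6 libraries was 113. WT stood at 171 and 138, *Mettl3* KO at 144 and 135, and *Trdn-as* KO at 47 and 43, and its mean Pol II value of 19.7 was just inside the limit. Both *Trdn-as* KO values were thus far below the other 4. The IgG value there was 48 in the WT library, 7 in the *Trdn-as* KO library and 14 in the *Mettl3* KO library, and its part in the difference was not tested. Against *Mettl3* KO the log2 fold change was -1.61 with an SE of 0.11 and an adjusted p of 1.2e-07 in limma. Against WT it was -1.75, where WT had served to choose it. Of 144 distal regions with little Pol II that reached 150 in at least 1 genotype, 48 were not among the 96 sites. In this wider set 2 regions were called in *Trdn-as* KO against WT, 0 in *Mettl3* KO against WT and 2 between the knockouts. The shares of all tested regions called were 0.587%, 0.185% and 1.37% in the same order. The other called region was chr9:37140979-37142132, with *Trdn-as* KO at 156 and 159, WT at 115 and 106 and *Mettl3* KO at 105 and 103, which *Trdn-as* KO had served to choose. The absence of calls among the 96 sites thus holds for sites chosen by their mean over all genotypes. It is near the small shares of all tested regions and is not particular to the sites.

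A missed threshold does not show that values were equal, so the intervals of the differences are given. In the fit of all 6 libraries, the 95% interval of every site lay inside a 1.5-fold change in each of the 3 comparisons. The outermost bounds on the log2 scale were -0.40 and 0.45 for *Trdn-as* KO against WT, -0.53 and 0.38 for *Mettl3* KO against WT and -0.31 and 0.55 between the knockouts. With the *Mettl3* KO pair averaged, 96, 92 and 78 sites had intervals inside 1.5-fold. A 1.25-fold change was outside the interval in 54, 75 and 34 sites, and in 19, 30 and 6 with the pair averaged. These intervals hold for single sites and are not adjusted for the number of sites.

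The spread between replicates was small at these sites. The SD of log2 values between replicates had a median of 0.088, against 0.153 over all tested regions, 0.115 in moderate sites, 0.072 in promoter regions with the same limits and 0.074 in distal sites with Pol II. With the shift between libraries removed, the median at the sites was 0.059, and counting alone would give an SD of 0.067 for the estimated reads. The SD of 0.059 includes the *Mettl3* KO pair. By genotype, chi-square per degree of freedom over the 96 sites was 1.41 in WT and 1.84 in *Trdn-as* KO, more than counting alone gives. It was 0.526 in *Mettl3* KO. The agreement was thus closest in the *Mettl3* KO pair.

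The sites were far apart. On 19 chromosomes there were 77 pairs of neighbouring sites, with a median distance from edge to edge of 11.2 Mb and a range from 0.0143 to 78.9 Mb. Only 1 pair was under 100 kb apart, 9 were under 500 kb, 11 under 1 Mb and 33 under 10 Mb. In the distal regions with Pol II and the same CTCF minimum, which were 465 in number, the median was 1.29 Mb, and in the 6846 moderate sites it was 0.142 Mb. Spacing depends on the number of regions in a set, so these medians are given without a test.

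**Figure D5:**
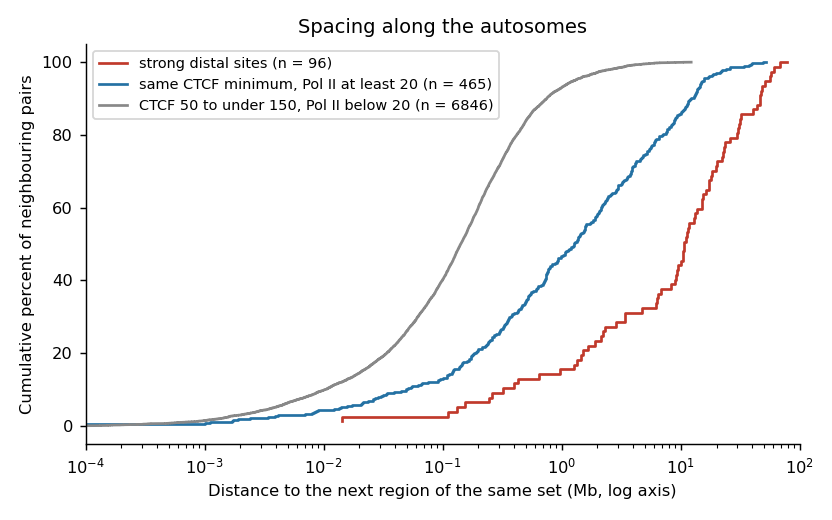
Cumulative percent of neighbouring pairs (y axis) by distance to the next region of the same set in Mb (log axis) for the 96 strong distal sites (red), 465 distal regions with the same CTCF minimum and more Pol II (blue) and 6846 moderate sites (grey). The median is 11.2 Mb for the strong sites, 1.29 Mb for the blue set and 0.142 Mb for the grey set, which also differ in number.

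The number of sites per chromosome ran from 1 on chromosomes 16 and 19 to 10 on chromosome 4. Per 10 Mb of chromosome covered by the table there were 0.400 sites over all autosomes, from 0.106 on chromosome 16 to 0.758 on chromosome 11 and 0.744 on chromosome 9. Chromosomes with more moderate sites had more strong sites, with a Spearman correlation of 0.68 over 19 chromosomes, which also differ in length. Chromosomes 3 and 6 were poor in strong sites, with 2 each and 0.128 and 0.137 per 10 Mb.

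The few close neighbours formed small groups. The closest pair was on chromosome 11, where chr11:100172493-100174137 and chr11:100188432-100190286 were 14294 nt apart, 37396 and 21352 nt from the start of *Eif1*, which encodes a translation initiation factor. The first had CTCF values of 205 and 183 (WT), 215 and 218 (*Trdn-as* KO), and 195 and 200 (*Mettl3* KO), and the second had 167 and 141, 166 and 168, and 141 and 134. These neighbours thus differed in level in every library. A further site, chr11:100059545-100060866 near *Krt19*, lay 112 kb before them, with 173 and 143, 160 and 165, and 135 and 141, and this was also the next closest pair.

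On chromosome 9, 4 sites lay within 121526166 and 122077743, at distances of 132, 153 and 261 kb. The first 3 lay in the bodies of *Sec22c*, a gene of vesicle transport, *Ccdc13*, and *Pomgnt2*, which encodes a glycosyltransferase that acts on dystroglycan. The nearest coding start of the last was that of *Abhd5*, an activator of fat breakdown, at 104 kb. Their mean CTCF values were 171.2, 175.3, 150.3 and 172.7. The log2 fold changes of *Trdn-as* KO against WT were 0.10, 0.05, 0.13 and 0.16, all within the range of the other sites.

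The most distant neighbours were on chromosome 1, where chr1:40154013-40156116, whose nearest coding gene was the interleukin receptor gene *Il1r1*, was 78.9 Mb from the site near *Gli2*. On chromosome 5 the site near *Tmem128* was 68.5 Mb from the next. The nearest region with a CTCF value of at least 50 was 177.5 kb from the site near *Il1r1* and 109.3 kb from that near *Tmem128*. Over all 96 sites the median of this distance was 15.8 kb (0.379 to 252.7 kb), and 37 sites had one within 10 kb and 74 within 50 kb. The closest, at 379 nt, was next to the site in *Pomgnt2*.

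Gene positions were those of 20914 genes of the table that had a region near their start, 13596 of them coding, so genes without such a region were not seen. The nearest coding start was at a median of 33.6 kb (7.66 to 284.1 kb), with 7 sites within 10 kb, 61 within 50 kb and 78 within 100 kb. In the distal regions with Pol II and the same CTCF minimum the median was 25.1 kb. Of the sites, 29 of 96 (30.2%) lay in the body of a coding gene of the table, against 50.3% in the distal regions with Pol II and 27.3% in the promoter regions with little Pol II. The nearest region with a Pol II value of at least 100 was at a median of 45.8 kb, against 17.9 kb in the distal regions with Pol II. Thus the sites were further from transcribed regions than distal sites of the same CTCF minimum with Pol II, a difference that was not tested and that shares the Pol II values of the rule.

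No site was within 500 kb of the genes lost in the knockouts. The nearest to *Trdn-as* on chromosome 10, at 33098341 to 33132414, was the site near *Ccn2*, 8.60 Mb away. The nearest to *Mettl3* on chromosome 14, at 52532298 to 52542585, was chr14:64306961-64309304 at 11.8 Mb. The comparisons above therefore concern sites away from both altered loci.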

How the data were processed

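ChIP-seq reads were trimmed by the authors (Trimmomatic 0.39, per the labels), aligned with STAR 2.7.11b to mm39 (GRCm39), freed of duplicates (Picard 3.1.1), counted over merged peaks with featureCounts and normalised with DESeq2 1.36.0. The deposited values are these normalised numbers rounded to whole numbers, treated as a score. Inputs, 3 in number, were not analysed here. Because the values are no read counts, limma 3.58.1 (R 4.3.3) was run on log2(value + 1) over regions with at least 10 in at least 2 of 6 CTCF libraries, with 3 genotypes and a variance trend, calling regions at 0.05 after Benjamini-Hochberg adjustment, and was tested on simulated data. The value of 1 read was estimated from the spacing of values, less surely for CTCF of *Mettl3* KO replicate 1, and with the mapped reads stated by the study gave read densities. Intervals of fold changes are from limma and cover the spread between libraries, and the floor of 3 reads covers counting error only. Whether libraries of a genotype came from separate hearts is not given in the sources used here, so p-values measure the spread between libraries. Sites, lists and comparison sets were chosen with earlier results of these data known. Sites named are the 5 highest in CTCF, those next to the limits, the 2 with the lowest adjusted p per direction and comparison, the 2 closest and 2 most distant pairs, the 2 highest in IgG and any near the altered genes; the groups on chromosomes 9 and 11, the called regions outside the 96, the site with the highest CTCF value per 1000 nt and that with the lowest Pol II value were added after their values were seen. Alternatives were other scalings, filters, pseudocounts, site limits and left-out libraries. No genome of the build was used, so no sequence is shown. Python 3.11.15, pandas 2.3.3, numpy 2.4.6, scipy 1.17.1 and matplotlib 3.10.9 were used.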

Additional observations from a re-analysis of the deposited data

How the results depend on the processing

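The number of sites called was 0 in 54 of 60 repeats over the 3 comparisons, but many of these could hardly have differed. For *Mettl3* KO against WT, 0 regions of the whole table were called with no filter, no variance trend or only the compared genotypes. There 0 sites say nothing of stability. With a library left out or the pair averaged, few or no regions of the whole table were called, so 0 sites there say nothing of stability. A stricter adjusted p and stricter site limits of 10 for Pol II and 200 for CTCF take a part of the same 0 calls and say nothing of stability. Quantile normalisation gave 1 site in *Trdn-as* KO against WT, at *Lbx1* (adjusted p in limma 0.0413), and a pseudocount of 10 gave 1 between the knockouts, near *Map3k21* (adjusted p in limma 0.0496). Choosing as many sites by CTCF per 1000 nt gave 1 in each of these comparisons, chr9:34930471-34931335, and choosing them on the genotype not compared gave 1 between the knockouts, on chromosome 7. These regions were named after their values were seen. Replicate numbers did not pair the libraries (correlations of deviations -0.24, 0.0059 and -0.0095), the replicate block left 0 sites called in each comparison, and over all regions it gave 236, 2 and 376 calls in place of 356, 112 and 828. Crossed pairing, chosen after seeing the data, called 12 sites between the knockouts and 503, 846 and 2061 regions.

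Over all repeats, the regions called ran from 1 to 503, from 0 to 846 and from 1 to 2061, so these counts are unstable. The median log2 fold change for *Trdn-as* KO against WT was 0.052 with mapped reads as library size, and 0.060 to 0.21 with a library left out. For *Mettl3* KO against WT it was -0.13 to 0.019 with a library left out. Between the knockouts it was 0.086 with median-of-ratios, 0.092 with equal totals, 0.10 with quantile normalisation and mapped reads, and 0.17 to 0.20 with a library left out. The difference in the share of the CTCF value was 0.0334 percentage points for *Trdn-as* KO, 0.0204 to 0.0464 with a library left out, and -0.0131 to 0.0129 for *Mettl3* KO. A Pol II limit of 10 left 8 sites with 2 neighbouring pairs, at a median of 30972578 nt apart. No site reached a CTCF value of 300, so that planned limit gave no result, and limits of 200 and per 1000 nt were chosen after seeing the data. The sites with an unadjusted p below 0.05 numbered 0 to 55 for *Trdn-as* KO against WT, 0 to 32 for *Mettl3* KO against WT and 0 to 59 between the knockouts. With 2 libraries per genotype, the 95% interval reached a median of 0.18 to either side of the log2 fold change, and 0.24 to 0.29 with the *Mettl3* KO pair averaged.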
